A study of Mus musculus with 20 samples.

Results

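Members of the Bcl2 family of cell death regulators were examined by RNA-seq in p19/Nras mouse liver cancer cells with and without the ubiquitin ligase Trim33. The 10 listed genes were Bcl2, Bcl2l1, Bcl2l2, Mcl1, Bcl2l11, Bmf, Bid, Bad, Bak1 and Bik, matched by gene symbol, and they leave out the family members best known as p53 targets. Of these, 9 were present in both count tables, which list 13107 and 11210 genes, and Bik was in neither table.

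Proteins of the Bcl2 family decide whether the outer mitochondrial membrane is opened and caspases are activated. The pro-survival members (Bcl2, Bcl-xL encoded by Bcl2l1, Bcl-w encoded by Bcl2l2, and Mcl1) hold the others in check, the effectors such as Bak1 form pores in the membrane, and the BH3-only proteins (Bim encoded by Bcl2l11, Bmf, Bid, Bad and Bik) bind into a groove of the pro-survival members through a short helix, the BH3 motif. Hepatocytes are known to depend on Bcl-xL and Mcl1 for survival.

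The cells come from a tumor that Nras induced in mice lacking p19/Arf, and all groups share this background and growth in DMEM with 10% fetal bovine serum. In the Myc experiment, Trim33-WT cells (a control guide) and the CRISPR lines Trim33-KO1 and Trim33-KO2 carried either the empty pWZL vector (Ctrl) or a Myc vector, without further treatment. In the HU experiment, Trim33-WT and Trim33-KO cells received vehicle or 1 mM of the replication inhibitor hydroxyurea (HU) for 4 h, and whether that KO line was KO1 or KO2 is not given in the labels. Each of the 10 groups held 2 libraries, which the labels number as replicates without stating separate cultures, so that p-values measure the spread between these libraries, which may be technical. Each KO line stands for itself, and guide or clone effects cannot be told apart from loss of Trim33 where only 1 line was measured.

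The coding sequence of the BH3 motif is given for the members on which the results turn. It is read 5′ to 3′ from the mouse annotation of genome build NCBIM37 (mm9). Capitals mark the codons of the conserved leucine or methionine, of the small residue (mostly glycine) and of the aspartate that define the motif. Each stretch lies within a coding exon.
Bcl2l1: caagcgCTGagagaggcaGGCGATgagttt
Bcl2l2: caagccATGcgggctgctGGAGACgagttt
Bcl2: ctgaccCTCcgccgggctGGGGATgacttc
Mcl1: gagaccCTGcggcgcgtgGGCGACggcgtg
Bmf: agaaagCTTcagtgtattGCAGACcagttc
Bid: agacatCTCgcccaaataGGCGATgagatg
Bak1: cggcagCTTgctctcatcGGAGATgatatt
They lie at chr2:152655436-152655465 (-) for Bcl2l1, chr14:55503348-55503377 (+) for Bcl2l2, chr1:108609155-108609184 (-) for Bcl2, chr3:95463353-95463382 (+) for Mcl1, chr2:118370839-118370868 (-) for Bmf, chr6:120847310-120847339 (-) for Bid and chr17:27159479-27159508 (-) for Bak1. Among all 10 members, the closest pair in these 30 bases was Bcl2l1 and Bcl2l2, with 21 identical bases, although each stretch encodes the BH3 motif.

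The 12 libraries of the Myc experiment held 14753177 to 17949430 counts each, and the 8 of the HU experiment 2315327 to 3082202, with a biological coefficient of variation of 0.0498 and 0.102. Changes smaller than could be detected at the depth of the HU libraries were thus called in the Myc experiment. Exons of Bad, Bak1, Bcl2 and Bid overlap those of Gpr137, Ggnbp1, D630008O14Rik and Bcl2l13 on the other strand by 517, 357, 558 and 628 bases, and whether the counting used strand is not given in the sources used here, so reads from these stretches cannot be told apart. Trim33 mRNA was lower in KO1 Ctrl (123 and 130.4 counts per 1000000 counts, CPM) and KO2 Ctrl (201 and 207 CPM) than in WT Ctrl (246 and 258 CPM), and lower in KO (50.8 and 43.8 CPM with vehicle) than in WT (139.7 and 125 CPM) in the HU experiment. With the Myc vector the order did not follow the labels: the libraries labelled WT Myc held 131 and 155 CPM, those labelled KO1 Myc 185 and 193 CPM and those labelled KO2 Myc 124 and 125 CPM. CRISPR edits need not lower the mRNA, so this level is an incomplete check, but each direction drawn below from the Myc-vector libraries refers to libraries as labelled. Myc mRNA was 433 and 439 CPM in WT Ctrl and 456 and 458 CPM in libraries labelled WT Myc, against 186 and 196 and then 621 and 646 CPM in KO1 and 210.3 and 219 and then 459 and 499 CPM in KO2. The Myc vector thus came with more Myc mRNA in KO1 (log2 fold change 1.73) and KO2 (1.16), while WT gave 0.067 (95% interval -0.049 to 0.18, adjusted p = 0.31) by edgeR.

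The cells are labelled as hepatocellular carcinoma. Of 14 hepatocyte markers, Afp alone was listed in the Myc experiment, at 30.2 and 33.0 CPM in WT Ctrl, 0.798 and 0.920 CPM in KO1 Ctrl, 8.13 and 8.56 CPM in KO2 Ctrl, 19.5 and 25.1 in WT Myc, 2.53 and 3.55 in KO1 Myc, and 0.221 and 0.297 in KO2 Myc. Albumin and 11 other hepatocyte markers were in neither table. The 5 listed of 8 cholangiocyte and epithelial markers summed to 6533 and 6726 CPM in WT Ctrl and to between 5132 and 5242 CPM in the KO Ctrl libraries, and the 7 listed of 8 mesenchymal markers to 6297 and 6467 CPM in WT Ctrl, 8671 and 8786 CPM in KO1 Ctrl and 5035 and 5251 CPM in KO2 Ctrl. Leukocyte markers stayed between 2.66 and 6.67 CPM in sum in the Myc experiment, with Ptprc not listed, and no endothelial marker was listed. The part of these marker differences in the results below was not tested, and in bulk RNA fewer cells of a type and less RNA per cell cannot be told apart.

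Levels of different members were compared as CPM per kb of exon. Mcl1 had the highest level in all 10 groups, from 56.0 CPM per kb in WT HU to 79.9 CPM per kb in WT Myc. Bcl2l1 and Bak1 took the next places. In WT Ctrl, Bcl2l1 followed at 52.5 CPM per kb, Bak1 at 21.0, Bid at 11.7, Bcl2 at 8.04, Bcl2l2 at 7.93, Bad at 6.51, Bcl2l11 at 3.37 and Bmf at 1.91 CPM per kb, and of these 8 neighbouring steps only that between Bcl2 and Bcl2l2 was within the spread of the 2 libraries. In KO1 Ctrl, WT vehicle and WT HU, Bak1 stood above Bcl2l1, although in WT vehicle their libraries overlapped. Bmf was the lowest member in 7 of the 10 groups and rested on 4 to 16 counts per library in the HU experiment, where its values carry a wide counting error.

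**Figure D1:**
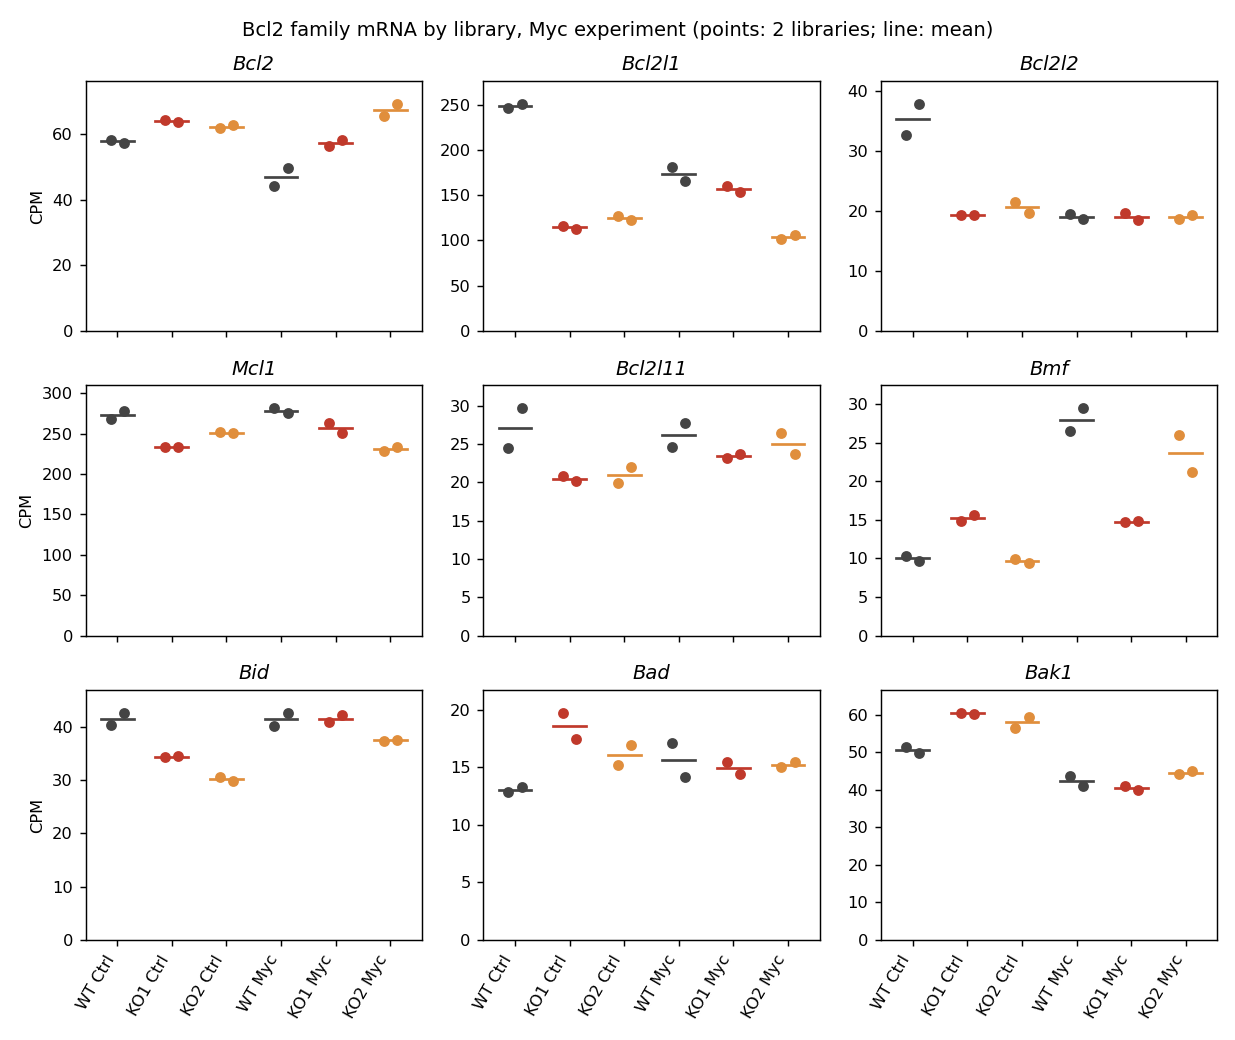
Level of each measured member (CPM, vertical axis from 0) in the 12 libraries of the Myc experiment. Points are libraries, lines the mean of 2 libraries, and colours the labelled genotype. Bcl2l1 and Bcl2l2 are highest in WT Ctrl, and Bmf is highest in WT Myc and KO2 Myc.

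The comparison of both KO lines with Trim33-WT cells carrying the Ctrl vector asks what loss of Trim33 does in otherwise unperturbed cells. Transcripts of the pro-survival genes Bcl2l1 and Bcl2l2 fell in both lines, together with those of the BH3-only genes Bid and Bcl2l11. Mcl1, Bmf, Bad and Bak1 passed the threshold in KO1 and not in KO2, and of these only Bmf was shown to differ between the lines. At an adjusted p below 0.01 (edgeR quasi-likelihood test), 8 of 9 members were called in KO1, where 52.2% of all genes were called, and 4 of 9 in KO2, where 49.9% were. The median log2 fold change of the members was -0.23 in KO1 and -0.12 in KO2, beside -0.0036 and -0.011 over all genes. Both comparisons share the 2 WT Ctrl libraries, so their results are not independent.

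Among the pro-survival genes, Bcl2l1 was at 247 and 251 CPM in WT Ctrl, 117 and 113 CPM in KO1 Ctrl and 127 and 122 CPM in KO2 Ctrl. All KO libraries were far below both WT libraries, and the log2 fold change was -1.12 (SE 0.058, adjusted p = 9.09e-11) in KO1 and -0.99 (SE 0.058, adjusted p = 5.34e-10) in KO2 by edgeR, which is 0.46 and 0.502 of the WT level. KO2 differed from KO1 by 0.12 (95% interval -0.0013 to 0.25, adjusted p = 0.131) for Bcl2l1 and 0.10 (95% interval -0.11 to 0.30, adjusted p = 0.496) for Bcl2l2 by edgeR, and neither passed. Bcl2l2 was at 32.8 and 37.9 CPM in WT Ctrl, 19.4 and 19.4 CPM in KO1 Ctrl and 21.6 and 19.8 CPM in KO2 Ctrl. The WT Ctrl libraries stood apart from the 10 other libraries of the experiment, which lay between 18.6 and 21.6 CPM, and the log2 fold change was -0.87 (SE 0.090, adjusted p = 3.86e-07) in KO1 and -0.77 (SE 0.089, adjusted p = 1.48e-06) in KO2 by edgeR. An overlapping transcript on the same strand, Gm20521, shares 594 bases of exon with Bcl2l2, so that its value is uncertain to that extent.

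Mcl1, the most abundant member, was at 268 and 278 CPM in WT Ctrl, 234 and 233 CPM in KO1 Ctrl and 252 and 251 CPM in KO2 Ctrl. The groups did not overlap, but the shift was small: it fell in KO1, with a log2 fold change of -0.23 (SE 0.051, adjusted p = 0.00101), and missed the threshold in KO2, at -0.12 (95% interval -0.23 to -0.012, adjusted p = 0.0515) by edgeR. Bcl2 was at 58.1 and 57.4 CPM in WT Ctrl, 64.4 and 63.8 CPM in KO1 Ctrl and 61.7 and 62.8 CPM in KO2 Ctrl. It was the 1 pro-survival gene with higher mean values in both lines, and neither difference passed the test, with log2 fold changes of 0.15 (95% interval 0.0047 to 0.30, adjusted p = 0.0669) and 0.11 (95% interval -0.038 to 0.25, adjusted p = 0.187) by edgeR.

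Of the BH3-only genes, Bid, whose product is cleaved by caspase-8 to link death receptors to mitochondria, was at 40.3 and 42.7 CPM in WT Ctrl, 34.3 and 34.5 CPM in KO1 Ctrl and 30.6 and 29.9 CPM in KO2 Ctrl. It fell in both lines without overlap, with log2 fold changes of -0.27 (SE 0.070, adjusted p = 0.00327) and -0.46 (SE 0.071, adjusted p = 3.89e-05) by edgeR. Bcl2l11, which encodes Bim, was at 24.4 and 29.7 CPM in WT Ctrl, 20.8 and 20.2 CPM in KO1 Ctrl and 19.9 and 22.0 CPM in KO2 Ctrl. It fell by 0.40 in KO1 and dropped by 0.37 in KO2 on the log2 scale (edgeR, adjusted p = 0.0031 and 0.00573), but WT replicate 1 lay much closer to the KO libraries than WT replicate 2. Without WT replicate 2 the values were -0.26 (adjusted p = 0.0801) and -0.22 (adjusted p = 0.128) by edgeR, and neither was called. The KO1 call was also lost without KO1 Ctrl replicate 1 (-0.42) or KO1 Ctrl replicate 2 (-0.38), and the KO2 call without KO2 Ctrl replicate 1 (-0.30) or KO2 Ctrl replicate 2 (-0.44).

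Bmf, a BH3-only gene whose product is held at the cytoskeleton by dynein light chain 2, separated the KO lines. It was at 10.3 and 9.71 CPM in WT Ctrl, 14.9 and 15.6 CPM in KO1 Ctrl and 9.86 and 9.37 CPM in KO2 Ctrl, so that KO1 stood above both other groups and KO2 overlapped WT. The log2 fold change was 0.61 (SE 0.12, adjusted p = 0.000457) in KO1 and -0.058 (95% interval -0.34 to 0.23, adjusted p = 0.728) in KO2, and KO2 differed from KO1 by -0.66 (SE 0.12, adjusted p = 0.000636), all by edgeR. Without KO2 Ctrl replicate 2 that last value was -0.63 with an adjusted p of 0.0116 (edgeR), just past the threshold. Bmf was the 1 member of 9 called between the KO lines, where 18.3% of all genes were called, and the median log2 fold change of the members was -0.042 beside -0.018 over all genes.

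Bad, which couples survival kinase signalling to Bcl-xL through 14-3-3 binding, was at 12.9 and 13.3 CPM in WT Ctrl, 19.8 and 17.5 CPM in KO1 Ctrl and 15.2 and 16.9 CPM in KO2 Ctrl. Both lines lay above WT, and the rise passed the threshold in KO1, at 0.51 (SE 0.11, adjusted p = 0.000932), while KO2 gave 0.30 (95% interval 0.053 to 0.54, adjusted p = 0.0349) by edgeR. The effector Bak1 was at 51.3 and 49.9 CPM in WT Ctrl, 60.5 and 60.3 CPM in KO1 Ctrl and 56.4 and 59.5 CPM in KO2 Ctrl. Again both lines lay above WT, the rise was called in KO1, at 0.26 (SE 0.065, adjusted p = 0.00265), and KO2 gave 0.20 (95% interval 0.058 to 0.33, adjusted p = 0.0158) by edgeR. The difference between KO2 and KO1 was -0.21 (95% interval -0.44 to 0.019, adjusted p = 0.161) for Bad and -0.060 (95% interval -0.20 to 0.075, adjusted p = 0.523) for Bak1 by edgeR, so the lines were not shown to differ in either gene.

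With 2 libraries a group, the smaller of these calls were fragile. The calls of Bcl2l1, Bcl2l2 and Bmf in KO1 held without each of the 4 libraries in turn, while those of Bad, Bak1, Bcl2l11, Bid and Mcl1 were each lost without at least 1, which left 6 members called without WT Ctrl replicate 1, 4 without WT Ctrl replicate 2, 3 without KO1 Ctrl replicate 1 and 4 without KO1 Ctrl replicate 2. In KO2, the calls of Bcl2l1, Bcl2l2 and Bid held without each library, and 3 or 4 members were called.

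**Figure D2:**
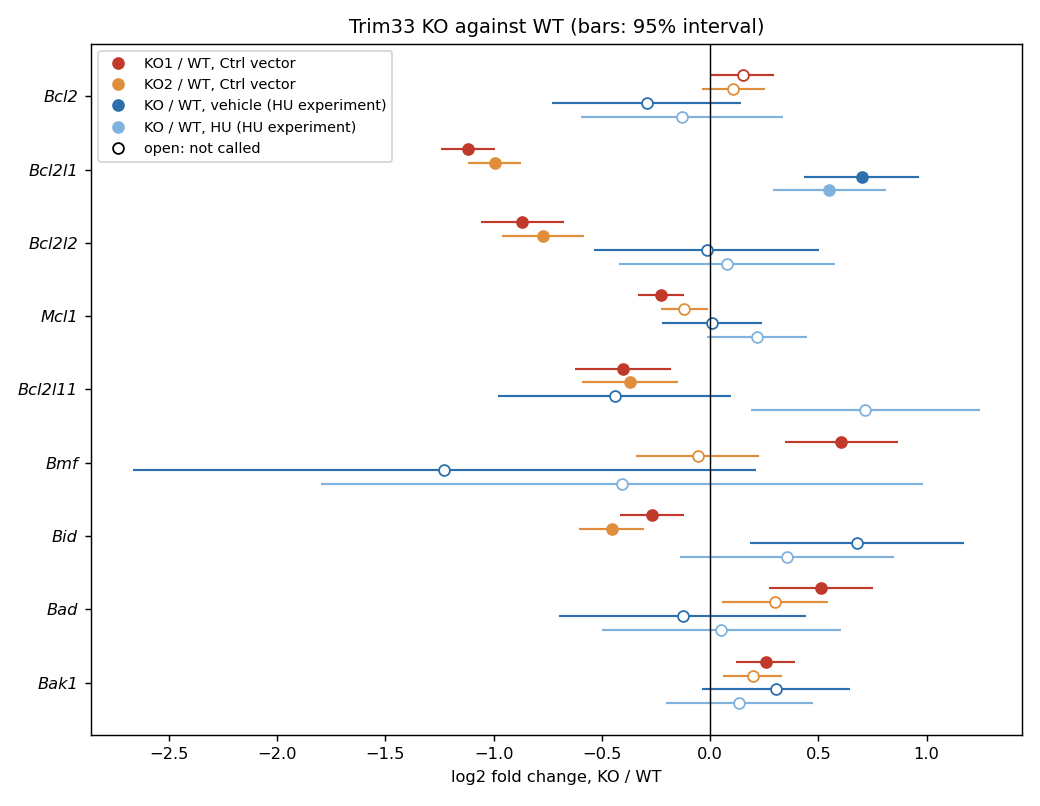
Log2 fold change of each member between Trim33-KO and Trim33-WT cells (horizontal axis) for KO1 and KO2 with the Ctrl vector and for KO with vehicle or HU. Bars are 95% intervals from the edgeR fit, filled points passed the threshold on the adjusted p and open points did not. Bcl2l1 lies at -1.12 and -0.99 in the Myc experiment and at 0.70 and 0.55 in the HU experiment.

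The Myc vector was compared with the Ctrl vector within each labelled genotype to ask how Myc overexpression acts with and without Trim33. Bmf and Bak1 stood out. As labelled, Bmf rose in WT and KO2 but not measurably in KO1, and Bak1 fell in all 3. Bcl2l1 fell in WT and KO2 and rose in KO1. By edgeR at an adjusted p below 0.01, 5 of 9 members were called in WT (44.3% of all genes), 3 in KO1 (36.1%) and 4 in KO2 (38.8%). The median log2 fold changes of the members were -0.047, -0.018 and -0.076, beside 0.0069, 0.0066 and 0.017 over all genes. The libraries labelled WT Myc held about as much Myc mRNA as WT Ctrl and less Trim33 mRNA, and in the Myc-vector libraries the epithelial markers summed to between 3105 and 4683 CPM and the mesenchymal markers to between 4826 and 7122 CPM. In Trim33 mRNA, the libraries labelled KO1 Myc lay near KO2 Ctrl, at means of 189 and 204 CPM. Those labelled KO2 Myc lay near KO1 Ctrl, at means of 124 and 127 CPM. Huwe1, given with the regulators, showed the same pattern. Whether these labels are exchanged was not tested, and neither was the part of these differences in the values below. The WT Myc libraries also differed more from each other than those of any other group, while the model estimates the spread over all groups.

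Bmf reached 26.5 and 29.5 CPM in WT Myc and 26.0 and 21.2 CPM in KO2 Myc, against 14.7 and 14.8 CPM in KO1 Myc. Both WT Myc and KO2 Myc lay clear of their Ctrl libraries, while KO1 Myc was within 1 CPM of KO1 Ctrl. Set beside the Ctrl libraries of the other KO line, both KO1 Myc and KO2 Myc were higher. The means were 14.8 CPM in KO1 Myc against 9.62 in KO2 Ctrl, and 23.6 in KO2 Myc against 15.2 in KO1 Ctrl. The lack of a rise in KO1 thus holds for the libraries as labelled only. The log2 fold change was 1.48 (SE 0.11, adjusted p = 2.68e-08) in WT, -0.046 (95% interval -0.29 to 0.20, adjusted p = 0.772) in KO1 and 1.29 (SE 0.11, adjusted p = 1.36e-07) in KO2 by edgeR, which is 2.8 and 2.45 times the Ctrl level in WT and KO2. The Myc effect in KO1 differed from that in WT by -1.53 (SE 0.16, adjusted p = 1.09e-06), and that in KO2 by -0.19 (95% interval -0.54 to 0.16, adjusted p = 0.371), by edgeR.

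Bak1 was at 43.6 and 41.1 CPM in WT Myc, 41.0 and 40.0 in KO1 Myc and 44.1 and 45.0 in KO2 Myc. Each pair lay below all 6 Ctrl libraries, with log2 fold changes of -0.26 (SE 0.067, adjusted p = 0.0036), -0.58 (SE 0.065, adjusted p = 2.33e-06) and -0.38 (SE 0.065, adjusted p = 0.000145) by edgeR. In WT the call was lost without either WT Ctrl library or without WT Myc replicate 2 (-0.24, -0.28 and -0.22), whereas in KO1 and KO2 it held without each library.

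Bcl2l1 was at 181 and 166 CPM in WT Myc, 159.8 and 154 in KO1 Myc and 102 and 106 in KO2 Myc. WT Myc lay below WT Ctrl, KO1 Myc above KO1 Ctrl and KO2 Myc below KO2 Ctrl, with log2 fold changes of -0.52 (SE 0.057, adjusted p = 1.34e-06), 0.45 (SE 0.058, adjusted p = 8.82e-06) and -0.27 (SE 0.059, adjusted p = 0.00126) by edgeR. The Myc effect in KO1 differed from that in WT by 0.97 (SE 0.081, adjusted p = 8.21e-08), and that in KO2 by 0.25 (95% interval 0.077 to 0.42, adjusted p = 0.0199), by edgeR. In KO2 the call was lost without KO2 Ctrl replicate 1 or without KO2 Myc replicate 1, at -0.24 and -0.24.

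Bcl2l2 was at 19.5 and 18.6 CPM in WT Myc, 19.7 and 18.6 in KO1 Myc and 18.7 and 19.4 in KO2 Myc, so that all Myc libraries lay at the level of the KO Ctrl libraries. It fell in WT, at -0.89 (SE 0.090, adjusted p = 5.19e-07), and gave -0.018 (95% interval -0.22 to 0.18, adjusted p = 0.895) in KO1 and -0.12 (95% interval -0.32 to 0.081, adjusted p = 0.313) in KO2 by edgeR. The Myc effect differed from that in WT by 0.87 (SE 0.13, adjusted p = 4.28e-05) in KO1 and 0.77 (SE 0.13, adjusted p = 0.000151) in KO2 by edgeR, values that all use the same high WT Ctrl libraries.

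Bcl2 was at 44.1 and 49.6 CPM in WT Myc, 56.4 and 58.2 in KO1 Myc and 65.4 and 69.2 in KO2 Myc. It fell in WT, at -0.30 (SE 0.070, adjusted p = 0.00165), and did not pass in KO1, at -0.16 (95% interval -0.31 to -0.019, adjusted p = 0.0578), or in KO2, at 0.11 (95% interval -0.029 to 0.25, adjusted p = 0.172), by edgeR. In WT the call was lost without either WT Ctrl library, at -0.29 and -0.31, or without WT Myc replicate 1, at -0.22. The effect in KO2 differed from that in WT by 0.41 (SE 0.097, adjusted p = 0.00236) by edgeR, a call lost without WT Ctrl replicate 1, KO2 Ctrl replicate 1 or KO2 Myc replicate 2, where the difference was 0.40, 0.40 and 0.37.

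Bid was at 40.1 and 42.7 CPM in WT Myc, 40.9 and 42.2 in KO1 Myc and 37.4 and 37.6 in KO2 Myc. WT Myc overlapped WT Ctrl, with -0.0020 (95% interval -0.15 to 0.14, adjusted p = 0.985), and Bid rose in KO1, at 0.27 (SE 0.069, adjusted p = 0.00409), and in KO2, at 0.31 (SE 0.071, adjusted p = 0.00164), by edgeR. The difference of these effects from that in WT was 0.27 (95% interval 0.066 to 0.48, adjusted p = 0.0285) in KO1 and 0.31 (95% interval 0.10 to 0.52, adjusted p = 0.0164) in KO2 by edgeR and passed in neither. The KO1 call was lost without KO1 Ctrl replicate 1, KO1 Ctrl replicate 2 or KO1 Myc replicate 2 (0.27, 0.27 and 0.25), and the KO2 call without KO2 Ctrl replicate 1, KO2 Ctrl replicate 2 or KO2 Myc replicate 2 (0.33, 0.29 and 0.31).

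Mcl1, Bcl2l11 and Bad were not called for the Myc vector in any genotype. Mcl1 was at 282 and 275 CPM in WT Myc, 264 and 251 in KO1 Myc and 229 and 234 in KO2 Myc, with 95% intervals of the log2 fold change of -0.080 to 0.14, 0.033 to 0.25 and -0.23 to -0.012. Bcl2l11 was at 24.7 and 27.7, 23.2 and 23.7 and 26.4 and 23.7 CPM in these groups, with intervals of -0.26 to 0.17, -0.027 to 0.42 and 0.038 to 0.47. Bad was at 17.1 and 14.1, 15.5 and 14.5 and 15.0 and 15.5 CPM, with intervals of 0.0091 to 0.50, -0.55 to -0.084 and -0.31 to 0.16. None of these intervals reaches a log2 change of 1, so larger shifts of these 3 genes are outside what the fit allows.

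**Figure D3:**
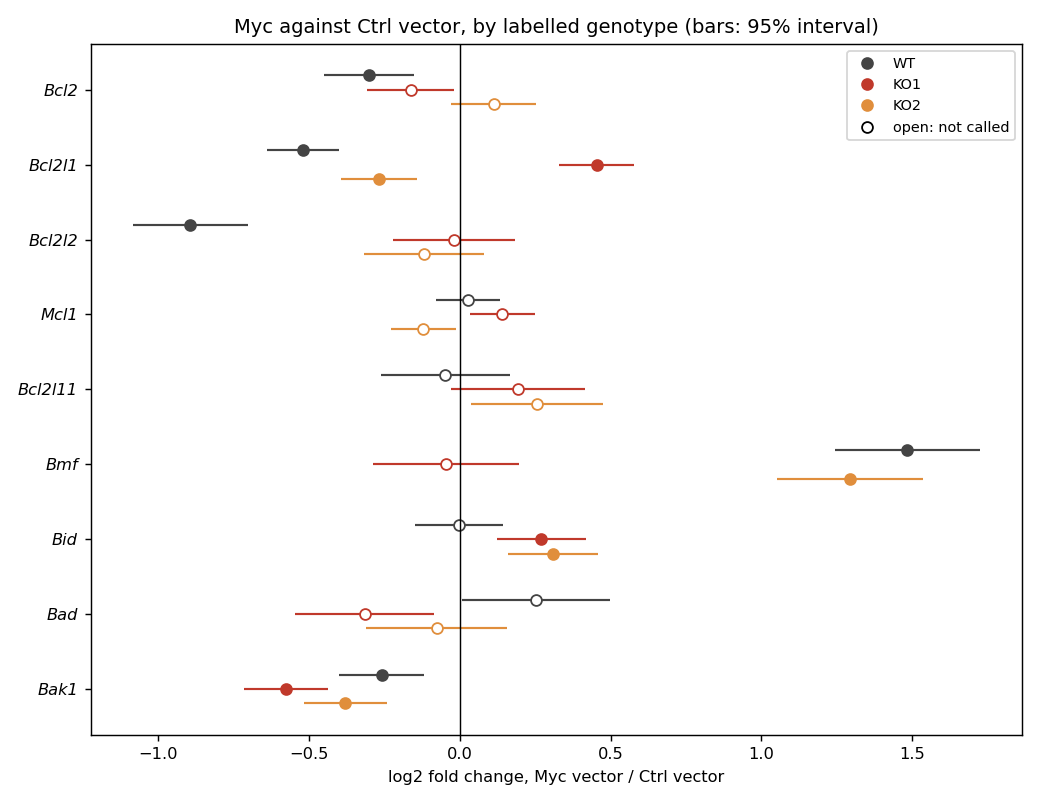
Log2 fold change of each member between the Myc and the Ctrl vector (horizontal axis) in cells labelled WT, KO1 and KO2. Bars are 95% intervals from the edgeR fit, filled points were called at an adjusted p below 0.01 and open points were not. Bmf lies at 1.48 in WT and 1.29 in KO2, and Bak1 is below 0 in all 3.

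Taken across members, the Myc effect differed between KO1 and WT for 5 of 9 (Bcl2l1, Bcl2l2, Bmf, Bad and Bak1), where 37.3% of all genes differed, and between KO2 and WT for 2 of 9 (Bcl2l2 and Bcl2), where 32.8% did, by edgeR at an adjusted p below 0.01. The median differences were 0.14 and 0.25, beside 0.00045 and 0.016 over all genes. For Bad the difference in KO1 was -0.57 (SE 0.16, adjusted p = 0.00712) and for Bak1 -0.32 (SE 0.093, adjusted p = 0.00961) by edgeR. Both of these calls were lost without either WT Ctrl library, KO1 Ctrl replicate 1, WT Myc replicate 1 or either KO1 Myc library, each of which left 3 members called, and that of Bak1 also without KO1 Ctrl replicate 2. Sizes without 1 library lay between -0.70 and -0.43 for Bad and between -0.36 and -0.28 for Bak1. In KO2, without WT Myc replicate 1 the difference for Bcl2l1 was also called (0.32), and without WT Myc replicate 2 that for Bid (0.36), which made 3 members.

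Between libraries carrying the Myc vector, the KO lines differed from WT in Bcl2, Bmf, Bcl2l1 and Mcl1. By edgeR 2 of 9 members were called in KO1 (25.1% of all genes) and 3 of 9 in KO2 (35.2%), and the median log2 fold changes were -0.063 and -0.066, beside -0.010 and -0.0038 over all genes. Bcl2 was higher than in WT Myc in both lines, by 0.29 (SE 0.069, adjusted p = 0.00373) in KO1 and 0.52 (SE 0.068, adjusted p = 1.15e-05) in KO2 by edgeR. In KO1 this call was lost without WT Myc replicate 1 (0.21) or KO1 Myc replicate 2 (0.27), each of which left Bmf alone, and in KO2 it held without each library. Bmf was lower in KO1 Myc than in WT Myc, at -0.92 (SE 0.10, adjusted p = 4.35e-06), and KO2 gave -0.25 (95% interval -0.45 to -0.041, adjusted p = 0.0452) by edgeR. Bcl2l1 and Mcl1 were lower in KO2 Myc, at -0.74 (SE 0.058, adjusted p = 3.27e-08) and -0.27 (SE 0.051, adjusted p = 0.000409), and in KO1 gave -0.15 (95% interval -0.27 to -0.024, adjusted p = 0.0551) and -0.11 (95% interval -0.22 to -0.0070, adjusted p = 0.0864) by edgeR. Bcl2l2, which had differed most clearly with the Ctrl vector after Bcl2l1, gave 0.0052 (95% interval -0.20 to 0.21, adjusted p = 0.974) in KO1 and 0.00087 (95% interval -0.20 to 0.20, adjusted p = 0.995) in KO2 by edgeR. Without WT Myc replicate 2, Bcl2l1 was also called in KO1 (-0.21), and without KO2 Myc replicate 1, Bmf was also called in KO2 (-0.40).

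In the HU experiment, Trim33-KO cells were compared with Trim33-WT cells without drug and under replication stress. Bcl2l1 was the 1 member called, and here it was higher in KO. By edgeR at an adjusted p below 0.01, 1 of 9 members was called with vehicle (5.58% of all genes) and 1 of 9 with HU (6.04%), and the median log2 fold changes were -0.015 and 0.13, beside -0.00013 and -0.0069 over all genes. Bcl2l1 was at 111 and 98.5 CPM in WT vehicle, 167 and 172 in KO vehicle, 100.2 and 115 in WT HU and 156 and 159 in KO HU. All KO libraries lay above all WT libraries in both conditions, with log2 fold changes of 0.70 (SE 0.13, adjusted p = 0.000116) with vehicle and 0.55 (SE 0.13, adjusted p = 0.00233) with HU by edgeR. The call with vehicle held without each library, and that with HU was lost without each of the 4 libraries in turn, where the value lay between 0.45 and 0.65 and the adjusted p between 0.013 and 0.123.

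The direction for Bcl2l1 was the reverse of that in both KO lines with the Ctrl vector, where all KO libraries lay below WT. Bid showed the same reversal, at 27.4 and 21.1 CPM in WT vehicle and 37.8 and 39.4 CPM in KO vehicle, without overlap and without passing the threshold, at 0.68 (95% interval 0.18 to 1.17, adjusted p = 0.0615) by edgeR. Bcl2l13, whose exons overlap those of Bid by 628 bases, had its lowest mean in WT vehicle, at 52.0 CPM. It had an unadjusted p below 0.05 in this comparison (edgeR) and was not called. The part of this overlap in the Bid values was not tested. The experiments were fitted apart, and they differ in vector, in treatment and possibly in KO line, so the difference between them was not tested and these factors cannot be told apart. Myc mRNA was lower in KO1 and KO2 than in WT with the Ctrl vector, by log2 fold changes of -1.19 and -1.02. With vehicle, KO gave -0.019 (95% interval -0.26 to 0.22) by edgeR. The part of this in the Bcl2l1 and Bid values was not tested. Afp and Apob, the 2 listed hepatocyte markers, summed to 13.5 and 23.1 CPM in WT vehicle and to 26.1 and 28.5 CPM in KO vehicle, and with HU to 15.6 and 18.5 CPM in WT and 23.3 and 29.2 CPM in KO. The listed epithelial markers summed to 2536 and 2866 CPM in WT vehicle, 2944 and 3381 CPM in KO vehicle, 2739 and 2822 CPM in WT HU and 3262 and 3443 CPM in KO HU. The listed mesenchymal markers summed to 3364 and 3548 CPM in WT vehicle, 3579 and 3903 CPM in KO vehicle, 3770 and 3791 CPM in WT HU and 4091 and 4103 CPM in KO HU. All 3 sums were thus higher in KO without overlap in both conditions, as Bcl2l1 was. In the Ctrl libraries of the Myc experiment, Afp and the epithelial sum were lower in both KO lines. The mesenchymal sum there was above WT in KO1 (8671 and 8786 CPM) and below WT in KO2 (5035 and 5251 CPM), while Bcl2l1 was lower in both. The part of these markers in the Bcl2l1 values was not tested.

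The other members did not pass between KO and WT in this experiment. Over the 8 libraries Mcl1 lay between 183 and 229 CPM, Bcl2l2 between 21.5 and 35.3 CPM, Bad between 18.7 and 28.8 CPM and Bak1 between 56.1 and 82.5 CPM. With vehicle, the 95% intervals were -0.73 to 0.14 for Bcl2, -0.53 to 0.50 for Bcl2l2, -0.22 to 0.24 for Mcl1, -0.98 to 0.10 for Bcl2l11, -0.70 to 0.44 for Bad and -0.037 to 0.65 for Bak1. For Bcl2l2 this interval leaves out the KO1 and KO2 values of -0.87 and -0.77 with the Ctrl vector. Bmf had only 10 and 16 counts in WT vehicle and 4 and 8 in KO vehicle, and its interval of -2.67 to 0.21 shows how little the depth allows. With HU, Bcl2l11 was higher in both KO libraries than in both WT libraries and gave 0.72 (95% interval 0.19 to 1.25, adjusted p = 0.0689), and the intervals of the others were -0.60 to 0.34 for Bcl2, -0.42 to 0.58 for Bcl2l2, -0.016 to 0.44 for Mcl1, -1.80 to 0.98 for Bmf, -0.14 to 0.85 for Bid, -0.50 to 0.60 for Bad and -0.21 to 0.48 for Bak1 (edgeR).

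**Figure D4:**
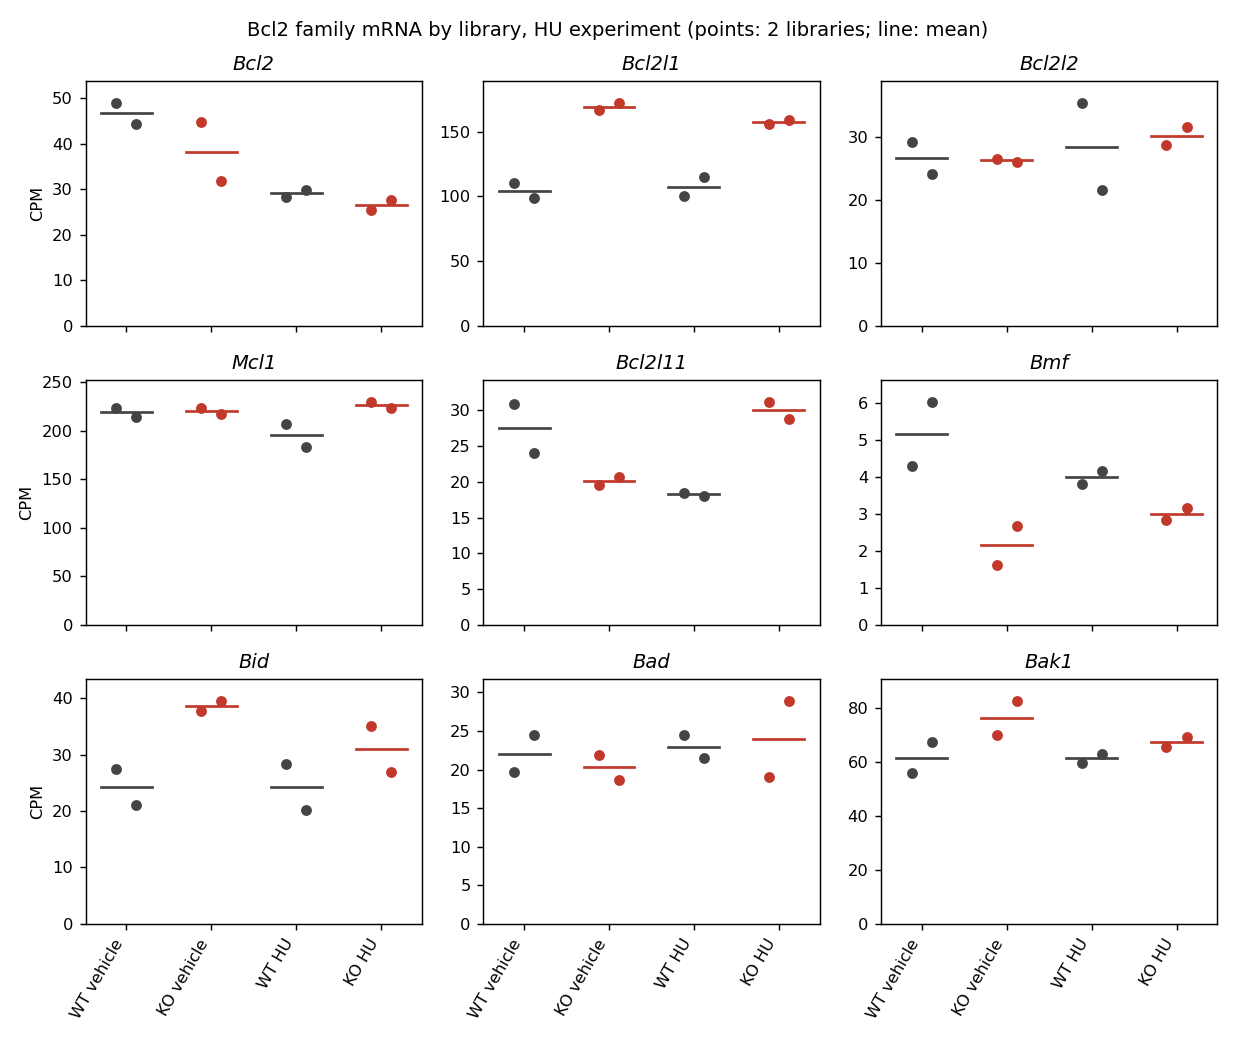
Level of each measured member (CPM, vertical axis from 0) in the 8 libraries of the HU experiment. Points are libraries, lines the mean of 2 libraries, and colours the labelled genotype. The KO libraries lie above WT for Bcl2l1 in both conditions, and Bcl2 is lower with HU than with vehicle in WT and KO.

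HU was compared with vehicle to follow the response to stalled replication, and Bcl2, in WT cells, was the 1 member called. By edgeR at an adjusted p below 0.05, 1 of 9 members was called in WT (9.83% of all genes) and 0 of 9 in KO (6.45%). In KO, 2 members (Bcl2 and Bcl2l11) had an unadjusted p below 0.05, and DESeq2 called 0. The median log2 fold changes of the members were -0.011 and 0.041, beside 0 and -0.0098 over all genes. Bcl2 was at 48.8 and 44.4 CPM in WT vehicle and 28.3 and 29.8 in WT HU, and at 44.7 and 31.7 in KO vehicle and 25.5 and 27.7 in KO HU. In each genotype both HU libraries lay below both vehicle libraries, and the log2 fold change was -0.68 (SE 0.22, adjusted p = 0.037) in WT and -0.52 (95% interval -0.98 to -0.056, adjusted p = 0.207) in KO by edgeR. The WT call was lost without each of the 4 libraries in turn, with values between -0.76 and -0.62 and an adjusted p between 0.0687 and 0.230, and DESeq2 gave an adjusted p of 0.114. The difference of the HU effect between KO and WT was 0.16 (95% interval -0.48 to 0.80, adjusted p = 0.978) by edgeR.

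Changes of Bcl2l1 with HU were bounded by intervals of -0.23 to 0.31 in WT and -0.36 to 0.15 in KO, and those of Mcl1 by -0.40 to 0.067 and -0.19 to 0.27.

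Bcl2l11 went opposite ways in the genotypes. It was at 30.8 and 24.1 CPM in WT vehicle, 18.5 and 18.0 in WT HU, 19.5 and 20.7 in KO vehicle and 31.1 and 28.8 in KO HU. Both WT HU libraries lay below WT vehicle and both KO HU libraries above KO vehicle. The log2 fold changes were -0.58 (95% interval -1.12 to -0.045, adjusted p = 0.185) in WT and 0.57 (95% interval 0.043 to 1.10, adjusted p = 0.232) in KO, and their difference, 1.16 (95% interval 0.40 to 1.91, adjusted p = 0.641) by edgeR, did not pass over all genes. For the difference of the HU effect, 0 of 9 members were called by edgeR and 0 by DESeq2, 1 (Bcl2l11) had an unadjusted p below 0.05, and 0.0714% of all genes were called.

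The composition of the pro-survival pool followed from these levels. As CPM per kb, the 4 pro-survival members summed to 144 and 149 in the WT Ctrl libraries. KO1 Ctrl reached 105 and 104 and KO2 Ctrl 113 and 111 CPM per kb. All KO Ctrl libraries were below both WT libraries. Bcl2l1 made up 36.1% and 35.5% of this sum in the WT Ctrl libraries, against 23.4% and 22.9% for KO1 Ctrl and 23.9% and 23.3% for KO2 Ctrl. Mcl1 made up 53.3% and 53.5% for WT, 63.9% and 64.4% for KO1 and 64.2% and 64.8% for KO2. The share of Mcl1 was thus larger in KO Ctrl although its own level was not higher. In the HU experiment Bcl2l1 made up 23.1% and 22.2% in WT vehicle and 31.6% and 33.3% in KO vehicle, and the sums were 101 and 93.9 and 111 and 109 CPM per kb. The ratio of this sum to that of the 5 measured BH3-only and effector members was 3.28 and 3.32 in the WT Ctrl libraries, against 2.10 and 2.12 for KO1 Ctrl and 2.56 and 2.41 for KO2 Ctrl. In the HU experiment WT and KO overlapped in this ratio with vehicle, at 2.22 and 1.87 and at 2.09 and 1.89. With HU both KO libraries, at 2.13 and 1.98, lay above both WT libraries, at 1.93 and 1.88. The effector Bax is not a listed member and is left out of this ratio. Its mean in WT Ctrl was 82.4 CPM per kb, above the 78.4 of Mcl1. With HU it was higher in KO, at 198 CPM, than in WT, at 129 CPM. The sizes and directions of the ratio thus hold for the listed members only. No test was run on these sums and shares, and mRNA levels do not give protein levels, which for Mcl1 in particular depend on rapid turnover.

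**Figure D5:**
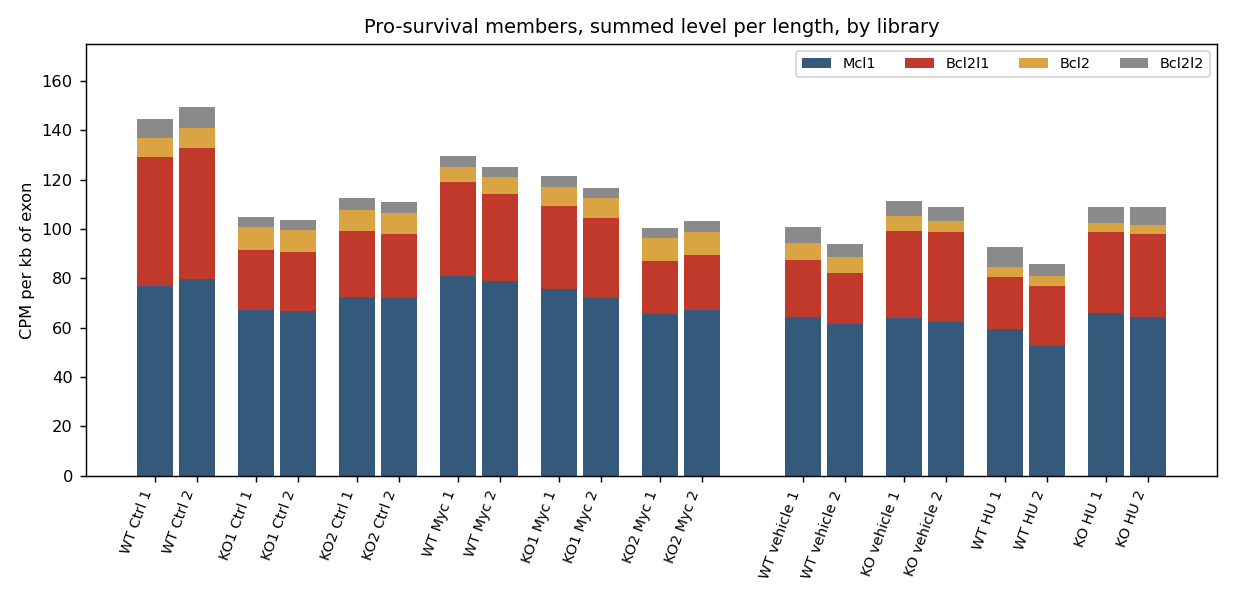
Summed level of the 4 pro-survival members in each of the 20 libraries (CPM per kb of exon, vertical axis from 0), stacked by member. The sum is 144 and 149 in WT Ctrl and at most 113 in the KO Ctrl libraries, and the difference lies mostly in Bcl2l1.

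Among 34 other genes of the apoptosis machinery, 26 were in both tables. With the Ctrl vector, 11 were called in KO1 (5 higher, 6 lower) and 11 in KO2 (7 higher, 4 lower), with median log2 fold changes of 0.0093 and 0.14. These are 42.3% and 42.3% of the genes of the list that were measured, beside 52.2% and 49.9% of all genes. The BH3-only gene Bbc3, which encodes Puma, fell by 1.47 in KO1 and dropped by 1.53 in KO2 on the log2 scale, and the effector caspase gene Casp6 rose by 1.01 and 0.81 and the inhibitor of apoptosis gene Birc5 by 0.63 and 0.87 (edgeR). The Myc vector gave 14 calls in WT (7 higher, 7 lower), 10 in KO1 (5 higher, 5 lower) and 11 in KO2 (2 higher, 9 lower), which is 53.8%, 38.5% and 42.3% of the list beside 44.3%, 36.1% and 38.8% of all genes. Bbc3 rose most in KO1, at 1.81, and in KO2, at 1.76, while the effector gene Bok rose most in WT, at 0.89. Between Myc-vector libraries, 5 genes were called in KO1 (1 higher, 4 lower) and 10 in KO2 (2 higher, 8 lower), against WT. These are 19.2% and 38.5% of the list beside 25.1% and 35.2% of all genes. With the Ctrl vector 2 differed between the KO lines, both higher in KO2, or 7.69% of the list beside 18.3% of all genes. HU gave 7 calls in WT (3 higher, 4 lower) and 2 in KO (both higher), or 26.9% and 7.69% of the list beside 9.83% and 6.45% of all genes, and Bbc3 rose by 2.73 and 2.39, larger than any member's change in that experiment. The effector Bax, a partner of Bak1, was higher in KO with vehicle (0.69) and with HU (0.61), where 2 and 1 genes of this list were called.

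Of 12 binding partners and regulators of the members, all measured, 7 were called in KO1 Ctrl (3 higher, 4 lower) and 7 in KO2 Ctrl (4 higher, 3 lower), with median log2 fold changes of -0.091 and 0.18. This share, 58.3% in each line, was near that of all genes, 52.2% and 49.9%. Pim1, a kinase that phosphorylates Bad, fell by 1.33 in KO1 and dropped by 0.86 in KO2 on the log2 scale, and Dynll2, the dynein light chain that binds Bmf, rose by 0.58 and 0.41 (edgeR). Foxo3, a transcription factor known to act on Bcl2l11, rose with HU by 1.96 in WT and 2.31 in KO (edgeR, adjusted p = 0.000129 and 9.51e-06), where Bcl2l11 itself was not called. The Mcl1 ubiquitin ligase Huwe1 differed by 1.16 between KO2 and KO1 with the Ctrl vector, at means of 429 and 192 CPM. Libraries labelled KO1 Myc held 401 CPM and those labelled KO2 Myc 191 CPM, log2 fold changes of 1.06 and -1.17 from the Ctrl vector. Each Myc-vector mean thus lay near the Ctrl mean of the other KO line. Trim33 mRNA in the Myc-vector libraries did not follow the labels, and the part of this in the Huwe1 values was not tested. In the same comparisons the log2 fold changes of Mcl1 were 0.11, 0.14 and -0.12, and none was called. With the Myc vector, 6 regulators were called in WT (all lower), 7 in KO1 (3 higher, 4 lower) and 6 in KO2 (all lower). These are 50%, 58.3% and 50% of the list beside 44.3%, 36.1% and 38.8% of all genes. For HU 2 each were called in WT and KO, both higher. That is 16.7% of the list in each, beside 9.83% and 6.45% of all genes.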

How the data were processed

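RNA was sequenced from 12 libraries of the Myc experiment and 8 of the HU experiment. The authors deposited a table of read counts per gene for each experiment, and their own comparison tables (log2 fold changes, mean log2 CPM, F, p and adjusted p), which were not used. The values of the Myc table are called normalized in its name, but they are whole numbers with differing totals and were treated as counts. The submitters' processing notes name STAR 2.5.4, the mm9 build and edgeR 3.26.8. The counting tool, annotation and strand setting are not given in the sources used here. Among HU counts from 1 to 50, 71.9% were even, against 48.4% in the Myc table, and the cause was not tested.

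Groups were taken from the labels. Each experiment was fitted apart with edgeR 4.0.16 (R 4.3.3, limma 3.58.1): filterByExpr removed 0 genes, TMM factors ranged from 0.958 to 1.019, and 1 quasi-likelihood model held all groups of the experiment, without a replicate term. Entries without a symbol (298 and 168) stayed in the fit under their gene identifiers. P-values were adjusted by Benjamini-Hochberg over all genes, with 0.01 as the threshold between genotypes and vectors and for differences of the Myc effect, and 0.05 for HU and for differences of the HU effect. Standard errors and 95% intervals come from the same fit. Levels are CPM scaled by the TMM totals, and levels per kb divide by the union of exons in the mm9 annotation. The procedure was tested on simulated data. The members and lists were chosen with earlier results of these data known. Named were all members in every comparison, Trim33 and Myc, from each list the called gene with the largest rise and fall with a mean of at least 5 CPM, and the 3 genes most alike the member with the widest range of group means; other list genes and further comparisons of a named gene were added after their values were seen.

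Libraries with the same replicate number did not deviate together in 1 direction throughout the Myc experiment, where r ran from -0.36 to 0.48 in 15 pairs of groups. It was above 0.1 in 4 pairs. The highest value was between WT Myc and KO1 Myc and the lowest between WT Myc and KO2 Myc, so some Myc-vector groups did vary together or oppositely. In the HU experiment r ran from -0.024 to 0.087 in 6 pairs. The numbers were not used as pairs in the main fit. Replicates differed by more than counting noise. The mean squared difference over counting noise was 10.6 in WT Myc and between 2.15 and 4.43 in the other groups of both experiments. The model estimates the spread over all groups of an experiment, so standard errors and p-values of comparisons that use WT Myc may be too small. Alternatives were other scalings, filters on low counts, fits on the compared groups only, a replicate block, DESeq2 1.42.0, counts halved in the HU table, and leaving out each library.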

Additional observations from a re-analysis of the deposited data

Results flagged for a closer look

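KO2 differed from KO1 in Bmf with the Ctrl vector, by -0.66 on the log2 scale (edgeR, adjusted p = 0.000636). Between libraries labelled KO1 and WT, the effect of the Myc vector differed by 0.97 for Bcl2l1, 0.87 for Bcl2l2, -1.53 for Bmf, -0.57 for Bad and -0.32 for Bak1, and between those labelled KO2 and WT by 0.77 for Bcl2l2 and 0.41 for Bcl2, each by the interaction term of the edgeR model. The differences for Bcl2l2 rest on the WT Ctrl libraries, the only ones of the Myc experiment above 21.6 CPM, and the Trim33 mRNA of the Myc-vector libraries did not follow their labels. In Trim33 and Huwe1 mRNA, KO1 Myc lay near KO2 Ctrl and KO2 Myc near KO1 Ctrl. The values for KO1 and KO2 thus hold as labelled only.

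Bcl2l1 was higher in KO than in WT with vehicle in the HU experiment, by 0.70, and lower in KO1 and KO2 with the Ctrl vector, by -1.12 and -0.99. Bid was at 0.68 in the first of these, a value that was not called, and at -0.27 and -0.46 in the others. Every KO library lay on the stated side of its WT libraries, but the difference between the experiments was not tested.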

How the results depend on the processing

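Of 135 member and comparison pairs, 40 were called. Over the alternatives that keep every library, 274 of 296 values of called pairs kept their direction and call and 22 kept the direction alone, while 6 of 710 values of uncalled pairs were newly called. Leaving out 1 library kept the call in 129 of 188 values, and no called pair changed sign under any alternative run. In 26 uncalled pairs the sign differed under some setting. Fitting only the compared groups gave 2 called members for KO2 against KO1 with the Ctrl vector, 3 for the Myc vector in WT, 1 for KO1 against WT with the Myc vector and 3 for the Myc effect in KO1 against WT. Without scaling beyond the library total, 3 were called for the Myc vector in WT and 1 for the Myc effect in KO2 against WT. DESeq2 called 3 for the Myc effect in KO1 against WT and 0 for HU in WT. The cause of these shifts was not tested. With the Ctrl-vector libraries alone, an alternative chosen after seeing the data, 8, 5 and 1 members were called for KO1 against WT, KO2 against WT and KO2 against KO1. Leaving out each library gave 3 to 6 called members for KO1 against WT and 0 to 1 for KO2 against KO1 with the Ctrl vector, 3 to 4 for the Myc vector in WT and 2 to 3 in KO2, 1 to 3 for KO1 against WT with the Myc vector, 3 to 5 and 1 to 3 for the Myc effect in KO1 and KO2 against WT, and 0 for both HU in WT and KO against WT with HU. These fits assume that a lone library varies like the other groups. With the replicate number as a block, 4 members were called for the Myc effect in KO1 against WT, Bak1 being lost just past the threshold, and no other count changed. Halving the counts of the HU table, where even counts were in excess, changed no count of called members. Depth limits Bmf in the HU experiment to 4 to 16 counts per library.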

Other observations

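Bmf had the widest range of group means among the members in both experiments. In the Myc experiment, the genes whose log2 CPM followed that of Bmf most closely over the 12 libraries were Cdc42ep1 (Pearson r = 0.968), Pla2g6 (r = 0.958) and Inpp5e (r = 0.956). In the HU experiment they were Galk2 (r = 0.990), Kazald1 (r = 0.972) and Npc2 (r = 0.970) over 8 libraries, where Bmf had 4 to 16 counts. These values describe the likeness of profiles picked from all genes with a mean of at least 5 CPM, over libraries that share groups, and no test was run on them.

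Over the 15 comparisons, Bcl2l1 was called in 9 (higher in 4, lower in 5), Bmf in 6, Bak1, Bcl2 and Bcl2l2 in 5 each, Bid in 4, and Bad, Bcl2l11 and Mcl1 in 2 each. Several comparisons share libraries, so these counts are not independent.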
